A study of Homo sapiens with 9 samples.

Results

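The rows described here are those of chromosome 5 in an array study of AsPC-1 cells with less STOML2. A row is the summarised signal of 1 transcript cluster, and a row was taken when its identifier began with TC05, which held for 901 of the 21448 rows. Rows were ordered from the end of the short (p) arm to the end of the long (q) arm by the RefSeq order of their genes. They were then split at the median of the row means over all 9 arrays, a log2 signal of 6.61. Of the 901 rows, 482 (53.5%) lay above that median and 419 below it. The p arm held 159 rows, of which 77 (48.4%) lay above the median, and the q arm held 737 rows, of which 404 (54.8%) did. For 5 rows no arm could be given, 1 of them above the median.

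The rows on either side of the split were chosen by the mean signal of each row over all arrays, so a row's level is a description and no result. The row nearest to the median on the upper side was MBLAC2, a metallo-beta-lactamase domain protein, with log2 signals of 7.10, 6.66 and 6.68 in the control arrays. Nearest on the lower side was SELENOP, a secreted selenium carrier, with 7.05, 6.65 and 6.73. The chromosome itself was picked with results of these comparisons known. Its counts and medians are therefore descriptions, and the shares of all rows printed beside them are given for scale.

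AsPC-1 is an established line of human pancreatic ductal adenocarcinoma. The control cells carried the blank pBAsi-hU6 NEO plasmid, and the lines called sh1 and sh2 carried the same plasmid with shRNA-1 or shRNA-2 against SLP-2, the mitochondrial inner membrane protein that STOML2 encodes. All 3 groups passed through 3 weeks of Geneticin and were each grown from 1 colony, so each group is 1 clone, and each had 3 arrays hybridised from 100 ng of total RNA. The study asked which genes change when SLP-2 is suppressed. The labels do not say whether separate cultures were used for the 3 arrays, so the p-values below rest on the spread within a clone and that spread may be technical only. The DNA of the clones was not measured on these arrays.

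The 9 arrays had medians of 6.57 to 6.65 and correlated across rows at r = 0.994 to 0.996 within groups and 0.982 to 0.988 between groups. STOML2, on chromosome 9, had a log2 signal of 13.67 ± 0.03 (SD, n = 3) in the control, 8.32 ± 0.12 in sh1 and 7.73 ± 0.34 in sh2, and was reduced in both lines (limma, adjusted p = 2.31e-09 and 1.63e-09). Of 12 ductal epithelial markers, 8 lay above the table median in the control and 9 in each line, with KRT8 at 16.20, KRT18 at 13.38 and KRT19 at 16.19 in the control, while CEACAM5, CEACAM6 and TFF1 stayed below it in every group. The mean of the 12 ductal markers ran from 9.495 to 9.67 in the control arrays, 10.53 to 10.59 in sh1 and 9.93 to 10.16 in sh2. Of 6 fibroblast markers 2 (COL1A2 and THY1) lay above the median in each group, and none of the 4 leukocyte, 4 endothelial and 3 acinar or islet markers did. The part of these marker levels in the chromosome 5 results was not tested.

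Chromosome 5 carries several well-known groups of genes. Its long arm holds the protocadherin clusters, whose cell-surface proteins give neurons their identity, the type 2 cytokine genes with IRF1 and RAD50 beside them, the tumour suppressor APC, and the ribosomal gene RPS14, which is known from blood disorders with loss of the long arm. Its short arm holds TERT, the catalytic subunit of telomerase, a row of classical cadherin genes and the receptor genes of the leukaemia inhibitory factor and oncostatin M family. Most neighbouring genes on a chromosome have separate promoters and unrelated functions, while a few pairs are transcribed away from each other out of a shared stretch of DNA.

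The stretches of DNA before 4 gene starts are shown as examples of genes described below. SPARC, which encodes a secreted matrix glycoprotein, had the largest rise on the chromosome in both lines. EDIL3, which encodes a secreted integrin-binding protein, had the largest fall. HARS1 and HARS2, the cytosolic and the mitochondrial histidyl-tRNA synthetase, start close together in opposite directions and were lower together in sh2. The sequences are from the RefSeq promoter table on GRCh38.p14 and run 5′ to 3′ on the strand named, and CG pairs are in capitals. The first and second end at the base before the gene's start, and the third is all that lies between the starts of HARS1 and HARS2.

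SPARC, chr5:151686916-151687165, minus strand: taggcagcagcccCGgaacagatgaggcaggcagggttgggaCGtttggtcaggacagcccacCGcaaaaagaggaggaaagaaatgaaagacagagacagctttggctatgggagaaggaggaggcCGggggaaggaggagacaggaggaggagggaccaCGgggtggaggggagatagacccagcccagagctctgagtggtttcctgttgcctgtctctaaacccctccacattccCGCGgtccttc
EDIL3, chr5:84384881-84385130, minus strand: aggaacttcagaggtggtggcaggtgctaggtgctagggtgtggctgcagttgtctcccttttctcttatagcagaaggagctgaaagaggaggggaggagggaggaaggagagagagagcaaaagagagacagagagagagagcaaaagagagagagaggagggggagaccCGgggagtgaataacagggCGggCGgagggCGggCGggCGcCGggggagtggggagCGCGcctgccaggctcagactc
HARS1 to HARS2, chr5:140691371-140691454, plus strand: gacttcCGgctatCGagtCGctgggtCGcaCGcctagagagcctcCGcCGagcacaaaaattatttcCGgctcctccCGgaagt

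The SPARC stretch holds 7 CG pairs in 250 bases and is 59.2% G or C, and that of EDIL3 holds 9 in 250 bases and is 61.2% G or C. The 84 bases between HARS1 and HARS2 hold 9 CG pairs and are 59.5% G or C. The letters GGGCGG, the core of the motif of SP1 family factors, were searched on both strands of the 300 bases from 250 before to 50 after each start in the table. They occur in 42.3% of all 27305 such stretches, in 68.7% of the 396 matched chromosome 5 rows above the table median and in 42.5% of the 287 matched rows below it. Among the 3 printed stretches, the EDIL3 stretch holds them and the other two do not. Stretches of rows above the median held a median of 21 CG pairs, those of rows below it 10, and those of all genes 11. The letters TATAAA, again on both strands, were in 4.04%, 9.76% and 11.1% of these groups, and CCAAT in 35.1%, 29.6% and 33.0%. Rows above the median on other chromosomes were not counted here, so none of these shares can be called particular to chromosome 5.

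Rows of both arms that lay above the table median were lower in sh1 and sh2 than in the control, and the arrays of a line lay close together. The median of the 77 p-arm rows, set against the mean of the control, was -0.05 to 0.07 in the 3 control arrays, -0.36 to -0.30 in the sh1 arrays and -0.44 to -0.35 in the sh2 arrays. For the 404 q-arm rows it was -0.03 to 0.02 in the control arrays, -0.29 to -0.25 in sh1 and -0.53 to -0.47 in sh2. In each arm all 6 arrays of the lines lay under all 3 control arrays. The sh1 and sh2 arrays did not overlap in the q arm, while in the p arm the highest sh2 array reached into the range of the sh1 arrays. Rows of all other chromosomes above the median stood at -0.03 to 0.02 in the control arrays, 0.05 to 0.06 in sh1 and 0.03 to 0.06 in sh2.

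**Figure D1:**
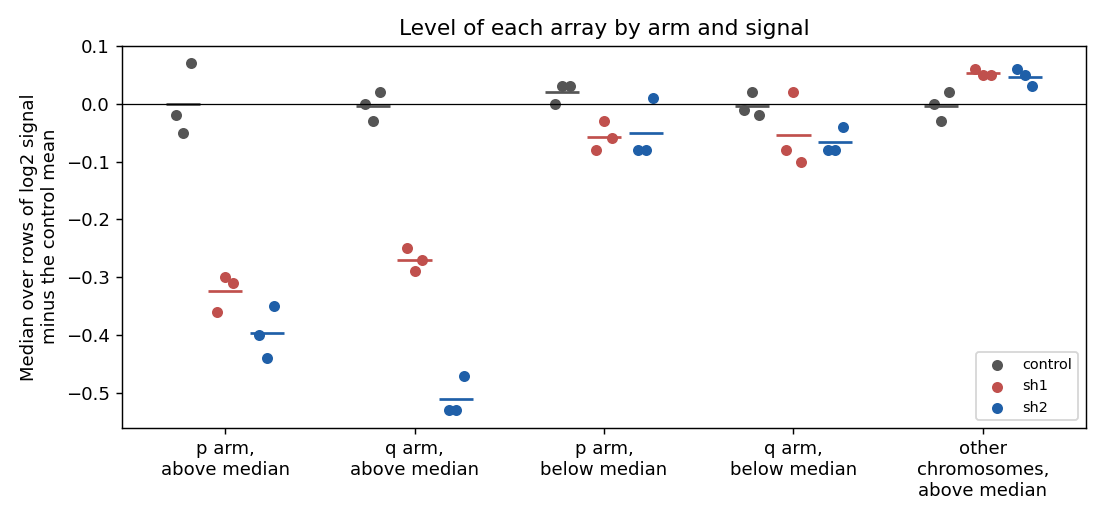
Median over rows of the log2 signal minus the control mean (vertical axis) for each array, by arm and by side of the table median, with all other chromosomes at the right. Points are arrays, short lines are means of 3 arrays. Above the median, the sh1 and sh2 arrays lie between -0.53 and -0.25 on both arms, and below the median between -0.10 and 0.02.

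Row by row, the shift was spread over most of the chromosome. A row was called where its difference had an adjusted p under 0.05 in limma, adjusted over all 21448 rows. In sh1, 148 of the 482 rows (30.7%) were lower and 25 (5.19%) higher, where 14.3% and 15.7% of all rows above the median were called. In sh2, 250 (51.9%) were lower and 18 (3.73%) higher, where 12.9% and 13.6% of all rows above the median were called. The median difference was -0.30 in sh1 with quartiles of -0.56 and -0.01, and -0.51 in sh2 with quartiles of -0.78 and -0.21, against 0.04 and 0.03 over all rows above the median. Below 0 stood 364 rows (75.5%) in sh1 and 424 (88.0%) in sh2, against 45.8% and 46.9% of all rows above the median.

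The 3 arrays of sh1 lay wholly under the 3 control arrays in 245 rows (50.8%), where 23.9% of all rows above the median did so, and those of sh2 in 334 rows (69.3%), where 22.6% did so. They lay wholly over the control in 45 rows of sh1 (27.5% over all rows above the median) and 28 rows of sh2 (25.3%). Both lines were compared with the same control arrays, so their values are not independent of each other. In 119 rows (24.7%) both lines were called lower, where 7.48% of all rows above the median were, and in 8 rows both were called higher, where 7.42% were. In 4 rows (0.83%) the lines were called in opposite directions, where 0.933% of all rows above the median were. Most of the falls were small. A fall of at least 2-fold was called in 50 rows in sh1 and 66 in sh2, where 4.8% and 3.61% of all rows above the median had one, and a rise of that size in 10 rows in each line, where 3.64% and 3.0% did.

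By their medians the arms stood a little apart in each line, with the p arm lower in sh1 and the q arm lower in sh2. On the p arm, 26 of 77 rows (33.8%) were lower in sh1 and 36 (46.8%) in sh2, with 2 and 3 rows higher and medians of -0.35 and -0.44. On the q arm, 122 of 404 rows (30.2%) were lower in sh1 and 214 (53.0%) in sh2, with 23 and 15 rows higher and medians of -0.29 and -0.53. The number of higher rows on the q arm in sh1 was 14 when control 1, control 2 or sh1 1 was left out, that on the p arm was 4 without sh1 1, and that on the p arm in sh2 was 1 without control 1 or sh2 3. Both arms stand beside 14.3% lower and 15.7% higher in sh1, and 12.9% and 13.6% in sh2, over all rows above the median. The difference between the arms was not tested.

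Rows above the median had larger falls than rows below it, with little change by level among the rows above. The 280 rows above the upper quartile of the table (9.98) had medians of -0.29 in sh1 and -0.52 in sh2, and the 202 rows between the median and that quartile had -0.31 and -0.48. The 199 rows between the lower quartile (4.21) and the median had -0.06 and -0.11, and the 220 rows under the lower quartile, near the lowest signals the arrays give, had -0.01 in both lines. Of the 419 rows below the median, 30 were lower and 17 higher in sh1, and 33 lower and 6 higher in sh2, where 3.7%, 3.8%, 3.04% and 3.07% of all rows below the median were called. The 49 rows above the median that carry no gene symbol had medians of -0.06 and -0.26.

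Along the chromosome the differences formed a profile with a shallow middle. The rows above the median were cut into blocks of 38 to 41 consecutive rows, 2 on the p arm and 10 on the q arm. From PLEKHG4B to ZFR, the outer block of the p arm, the median difference was -0.34 in sh1 and -0.57 in sh2, and 30 and 36 of its 38 rows stood below 0. In the inner block, from SUB1 to MRPS30, it was -0.35 and -0.34, with 30 and 29 of 39 rows below 0. The lines thus stood close together in the inner block of the p arm and apart in its outer block.

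The first 3 blocks of the q arm, from EMB to ARRDC3, were the shallow stretch. In sh1 these 121 rows had a median of -0.03, 66 of them were below 0, 18 (14.9%) were called lower and 14 higher. In sh2 the same rows had a median of -0.25, 97 were below 0, 34 (28.1%) were called lower and 6 higher. Over all rows above the median, 14.3% were lower and 15.7% higher in sh1, and 12.9% and 13.6% in sh2. The middle one of these blocks, from SLC30A5 to F2RL2, had a median difference of 0.09 in sh1 and -0.24 in sh2. Its array medians were 0.01 to 0.03 in sh1, within the range of the control arrays (-0.04 to 0.02) or just above it. In sh2 the array medians were -0.36 to -0.17, under that range. In this block 7 rows were higher and 3 lower in sh1, and 1 was higher and 13 lower in sh2.

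From NR2F1 to ZNF346, the next 6 blocks, rows of both lines were lower as a body. These 243 rows had a median of -0.40 in sh1, with 208 below 0 and 96 (39.5%) called lower against 8 higher. In sh2 the median was -0.62, with 224 below 0 and 160 (65.8%) called lower against 9 higher. Over all rows above the median, 14.3% were lower and 15.7% higher in sh1, and 12.9% and 13.6% in sh2. The block from CYSTM1 to ABLIM3, which holds the protocadherin clusters, had the most calls, with 19 and 31 of its 41 rows lower. Its median difference was -0.46 in sh1 and -0.70 in sh2. Its array medians were -0.48 to -0.37 in sh1 and -0.92 to -0.73 in sh2.

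The last block, from FGFR4 to TRIM41, differed between the lines, with a median of -0.14 in sh1 and -0.53 in sh2. Its array medians were -0.23 to -0.12 in sh1 and -0.55 to -0.47 in sh2, so the arrays of the lines did not overlap. Over all 12 blocks the median of sh2 minus sh1 was between -0.34 and 0.01, and the block from NR2F1 to FEM1C was the one at 0.01. That block held 7 of the 18 rows above the table median that were higher in sh2.

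**Figure D2:**
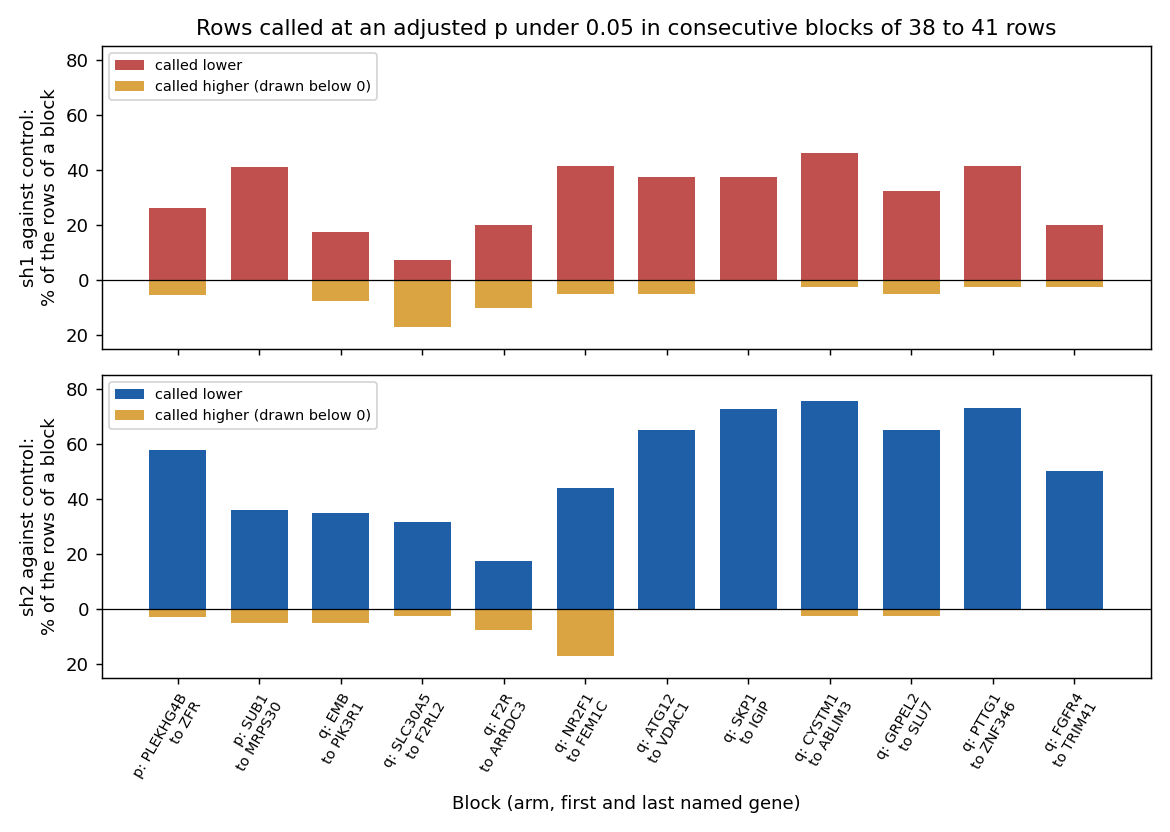
Share of rows called lower (upward bars) or higher (downward bars, also in percent) in each of 12 blocks of consecutive rows above the table median, from the p end to the q end, for sh1 and for sh2 against the control. The bars for lower rows are short from EMB to ARRDC3 and tallest, at 19 and 31 of 41 rows, from CYSTM1 to ABLIM3.

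A running median over 40 rows gave the same shape without fixed borders. In sh1 it was lowest at -0.51 from CAST to HSD17B4, where 36 of 40 rows were below 0, and highest at 0.10 from CCNB1 to F2R, where 16 were. In sh2 it was lowest at -0.83 from CXXC5 to SH3RF2 (38 of 40 below 0) and highest at -0.17 from PLK2 to NAIP (32 of 40), so it stayed below 0 at every place. For sh2 minus sh1 it ran from -0.39, between WDR36 and PDLIM4, to 0.13, between EDIL3 and PJA2.

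**Figure D3:**
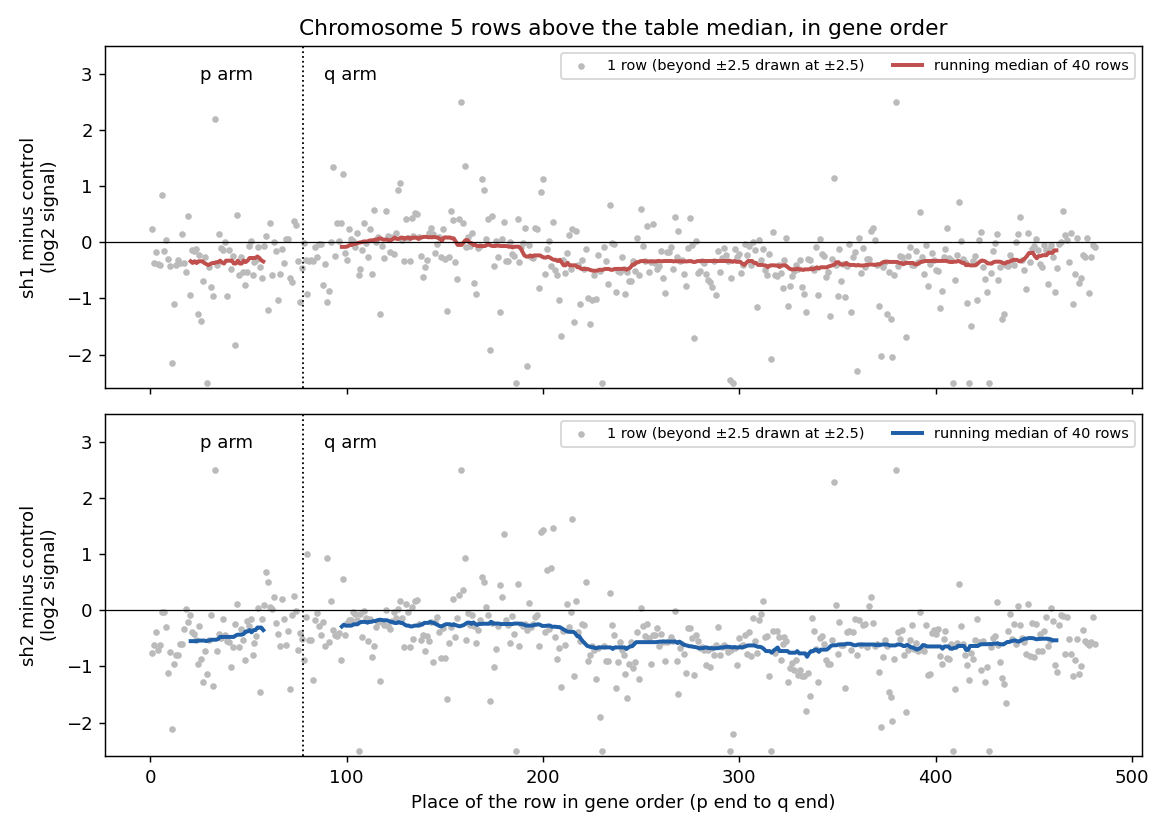
Difference from the control on the log2 scale (vertical axis) for each row above the table median, placed in gene order along the chromosome (horizontal axis), for sh1 (top) and sh2 (bottom). Grey points are rows, lines are running medians over 40 rows within an arm, and the dotted line parts the arms. The sh1 line runs from -0.51 to 0.10 and the sh2 line from -0.83 to -0.17.

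Chromosome 5 had the lowest median of 24 groups of identifiers with at least 50 rows above the table median, in each line. The medians of the others ran from -0.23 to 0.75 in sh1 and from -0.20 to 0.32 in sh2. Next lowest was chromosome 6, with 572 rows at -0.23 and -0.20. Chromosome 12 (562 rows) stood at 0.30 and 0.32, and chromosome 15 (362 rows) at 0.75 in sh1 and 0.25 in sh2.

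Beside some of the genes described next, the median difference of the 40 nearest rows above the table median is given as that of the neighbours.

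Of secreted and matrix proteins, SPARC rose from 3.99, 4.54 and 3.48 in the control arrays to 11.21, 11.05 and 11.24 in sh1 and 11.10, 11.17 and 10.92 in sh2. The control arrays lay around the lower quartile of the table and all 6 arrays of the lines lay well over its median. The difference was 7.16 ± 0.22 (SE) in sh1 and 7.06 ± 0.22 in sh2 (limma, adjusted p = 2.31e-09 and 3.33e-09), while the 40 nearest rows had medians of -0.37 and -0.63. EDIL3 went the other way, from 14.02, 13.95 and 14.24 in the control to 7.29, 6.95 and 7.40 in sh1 and 5.71, 5.0 and 5.61 in sh2. No array of a line came near the control, and the sh2 arrays lay under the sh1 arrays. Its difference was -6.86 ± 0.20 (adjusted p = 1.77e-09) in sh1 and -8.63 ± 0.20 (adjusted p = 3.59e-10) in sh2, among neighbours at -0.08 and -0.24.

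SLIT3, a secreted guidance ligand of the ROBO receptors, had 12.62, 12.44 and 12.21 in the control, 9.15, 8.88 and 8.72 in sh1 and 9.12, 9.31 and 9.27 in sh2. The lines overlapped each other and lay more than 3 log2 units under the control (-3.51 and -3.19, limma, adjusted p = 4.76e-08 and 8.53e-08). TGFBI, a matrix protein induced by TGF-beta, was among the brightest rows, with 16.49, 16.32 and 16.38 in the control, 14.00, 13.90 and 13.94 in sh1 and 13.96, 13.77 and 13.71 in sh2. It fell by 2.45 and 2.58 (adjusted p = 1.33e-07 and 7.55e-08). SPOCK1, a secreted proteoglycan of the SPARC family, fell by 2.63 and 2.21 (adjusted p = 2.22e-07 and 8.89e-07), opposite to SPARC.

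The collagen receptor subunit ITGA2 moved in opposite directions. Its arrays read 13.06, 13.18 and 13.36 in the control, 12.14, 12.23 and 12.47 in sh1 and 14.03, 14.22 and 14.36 in sh2, with no overlap between any groups. The fall in sh1 was -0.92 and the rise in sh2 was 1.00 (limma, adjusted p = 0.000906 and 0.000594). Of the 20 measured matrix, protease and integrin genes, SPARC was the 1 that rose in sh1, where 6 fell, while in sh2 there were 2 rises and 5 falls. Their median was -0.11 and 0.09, against 0.02 and 0.02 over all 21448 rows, of which 9.76% were higher and 9.0% lower in sh1, and 8.33% higher and 7.98% lower in sh2. These shares of all rows stand beside each list below as well. For members above the table median, so do the chromosome 5 rows above it. Of these, 30.7% and 51.9% were lower and 5.19% and 3.73% higher in sh1 and sh2.

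Of receptors for small ligands and proteases, F2RL2, a protease-activated receptor, rose from 7.17, 6.80 and 6.90 to 10.50, 10.39 and 10.07 in sh1 and 12.19, 11.85 and 11.82 in sh2. All 3 groups stood apart, with sh2 highest. The rise was 3.36 ± 0.16 (sh1) and 5.0 ± 0.16 (sh2), with adjusted p = 1.18e-07 and 5.68e-09 (limma). Its neighbour F2R, the thrombin receptor, gave values of 0.35 and 0.36 that did not pass (adjusted p = 0.0799 and 0.0759). DRD1, a dopamine receptor, went from 10.37, 10.29 and 10.31 to 6.09, 5.95 and 5.44 in sh1 and 6.67, 6.54 and 6.54 in sh2. Both lines came down to the table median or under it (-4.50 and -3.74, adjusted p = 9.05e-09 and 4.18e-08). ADRA1B, an adrenergic receptor whose mean was below the table median, fell by 1.96 and 1.53 (adjusted p = 1.02e-05 and 8.58e-05).

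The list of 13 measured G protein-coupled receptor genes had 2 members higher and 3 lower in sh1 and 1 higher and 3 lower in sh2, with medians of 0.07 and 0.01. Among those counted, LPCAT1, an acyltransferase of phospholipids, and CRHBP, a binding protein of the hormone CRH, are not receptors. LPCAT1 was bright in the control (11.93, 11.91 and 11.98) and lower in sh1 (9.84, 9.44 and 10.06) and sh2 (9.87, 10.13 and 9.49). The lines overlapped each other and not the control (-2.16 and -2.11, limma, adjusted p = 1.13e-05 and 1.67e-05).

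Of cell adhesion genes, CDH18, a classical cadherin of the p arm, rose from 6.53, 6.44 and 6.68 to 8.73, 8.73 and 8.77 in sh1 and 9.88, 9.72 and 9.81 in sh2. It was the p-arm gene with the largest rise in each line, at 2.19 ± 0.12 (limma, adjusted p = 2.68e-07) and 3.25 ± 0.12 (adjusted p = 1.32e-08), among neighbours at -0.37 and -0.53. Of 13 measured cadherins, catenins, semaphorins and partners, sh1 had 2 rises and 1 fall and sh2 had 1 rise and 3 falls, with medians of 0.11 and -0.04. The falls in sh2 were APC, the scaffold that marks beta-catenin for destruction (-0.64, adjusted p = 0.0227), CTNNA1, alpha-catenin (-0.54, adjusted p = 0.0214), and CAST (-0.48, adjusted p = 0.0199). CAST is the calpain inhibitor calpastatin and no cadherin or catenin, and was also the fall in sh1. Their neighbours in sh2 stood at -0.66, -0.64 and -0.29. Each of these calls was lost when 1 of several arrays was left out: APC without control 3, sh2 1 or sh2 2 (-0.60 to -0.47, adjusted p = 0.0682 to 0.0839), CTNNA1 without control 1, control 3 or sh2 1 (-0.56 to -0.45, adjusted p = 0.0570 to 0.0817), and CAST in sh2 without control 1, control 2 or sh2 3 (-0.47 to -0.42, adjusted p = 0.0665 to 0.0789). CAST in sh1 was lost without control 1, control 2 or sh1 2 (-0.48 to -0.43, adjusted p = 0.0527 to 0.0652).

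Of 55 listed protocadherin genes, 18 were measured, namely PCDH1, PCDH12 and members of the beta (PCDHB) cluster. No gene of the alpha or gamma cluster was among them. The measured genes were mostly dim, with 6 of 18 above the table median. In sh1, 3 of the 18 fell and PCDH1 rose, and in sh2, 8 fell and 0 rose, with medians of -0.31 and -0.59. At an unadjusted p under 0.05, 1 member was higher in sh2, where PCDH1 stood at 0.62 (limma, adjusted p = 0.0861), and limma with a trended, robust prior called 0. PCDHB6 went from 7.35, 8.12 and 7.85 to 6.12, 6.82 and 6.65 in sh1 and 6.01, 5.86 and 6.05 in sh2. Neither line overlapped the control (-1.24 and -1.80, adjusted p = 0.00172 and 0.000155). PCDHB9 and PCDHB13 fell in sh2 (-1.53 and -1.66, adjusted p = 9.86e-05 and 0.000119), and gave -0.32 and -0.40 in sh1 (adjusted p = 0.244 and 0.192). Genes of the beta cluster resemble each other in sequence, so their signals may not be fully separate.

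Of genes around the type 2 cytokines, IRF1, an interferon-responsive transcription factor, had 7.89, 7.66 and 8.17 in the control, 8.26, 8.09 and 7.96 in sh1 and 6.09, 6.71 and 6.46 in sh2. The sh2 arrays alone stood apart (-1.49, limma, adjusted p = 0.000188), and sh1 gave 0.20 (adjusted p = 0.537). The solute carrier gene SLC22A4 fell in both lines (-1.27 and -1.05, adjusted p = 0.00112 and 0.00456). Its neighbour SLC22A5 and the DNA repair gene RAD50 fell in sh2 (-0.91 and -0.68), and gave -0.26 and -0.34 in sh1 (adjusted p = 0.452 and 0.129). The cytokine genes IL3, IL4, IL5 and IL13 lay below the table median. None of the 4 passed in either line in limma, and 0 had an unadjusted p under 0.05. Of 15 measured genes of this list, sh1 had 0 rises and 2 falls and sh2 had 0 rises and 6 falls, with medians of -0.08 and -0.20. At an unadjusted p under 0.05, and in limma with a trended, robust prior, 0 were higher as well.

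Of growth factor and cytokine receptors and their kinases, 21 were measured. In sh1 there was 1 rise and there were 7 falls, in sh2 there were 2 rises and 4 falls, with medians of -0.20 and -0.15. MAP3K1, a kinase upstream of JNK, rose in sh1, from 7.09, 7.07 and 6.94 to 8.38, 8.55 and 8.22 (1.35, limma, adjusted p = 0.000558), and read 7.17, 6.28 and 6.62 in sh2 (-0.34, adjusted p = 0.302). IL31RA, a cytokine receptor chain, fell by 1.06 in sh1 and rose by 0.93 in sh2 (adjusted p = 0.00151 and 0.00398). PIK3R1, the regulatory subunit of PI3 kinase, fell by 1.28 and 1.25 (adjusted p = 0.000182 and 0.000255) in the shallow stretch, where its neighbours stood at 0.08 and -0.17. RICTOR, a core subunit of mTOR complex 2, rose in sh2 (0.68, adjusted p = 0.0295) and gave 0.11 in sh1 (adjusted p = 0.760). The RICTOR call was lost when any of 4 arrays was left out, control 1, control 2, sh2 2 or sh2 3, with 0.54 to 0.67 and adjusted p = 0.0808 to 0.113.

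Feedback genes of ERK signalling went both ways. SPRY4, an inhibitor of receptor kinase signalling, rose from 7.05, 7.43 and 7.50 to 8.40, 8.71 and 8.32 in sh1 and 9.90, 9.47 and 9.49 in sh2. The groups did not overlap and the order was control, sh1, sh2 (1.15 and 2.29, limma, adjusted p = 0.000703 and 4.24e-06). DUSP1, a phosphatase of MAP kinases, fell from 10.98, 10.42 and 10.59 to 7.85, 7.92 and 7.76 in sh1 and 9.57, 9.31 and 9.40 in sh2, again with no overlap (-2.82 and -1.24, adjusted p = 2.96e-07 and 0.000219). Of 10 measured immediate early and feedback genes, 1 rose and 4 fell in each line, with medians of -0.31 and -0.62. RASGRF2, an exchange factor of RAS, was among those that fell in sh1 (-1.24, adjusted p = 0.000212), and gave 0.45 in sh2 (adjusted p = 0.0859).

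**Figure D4:**
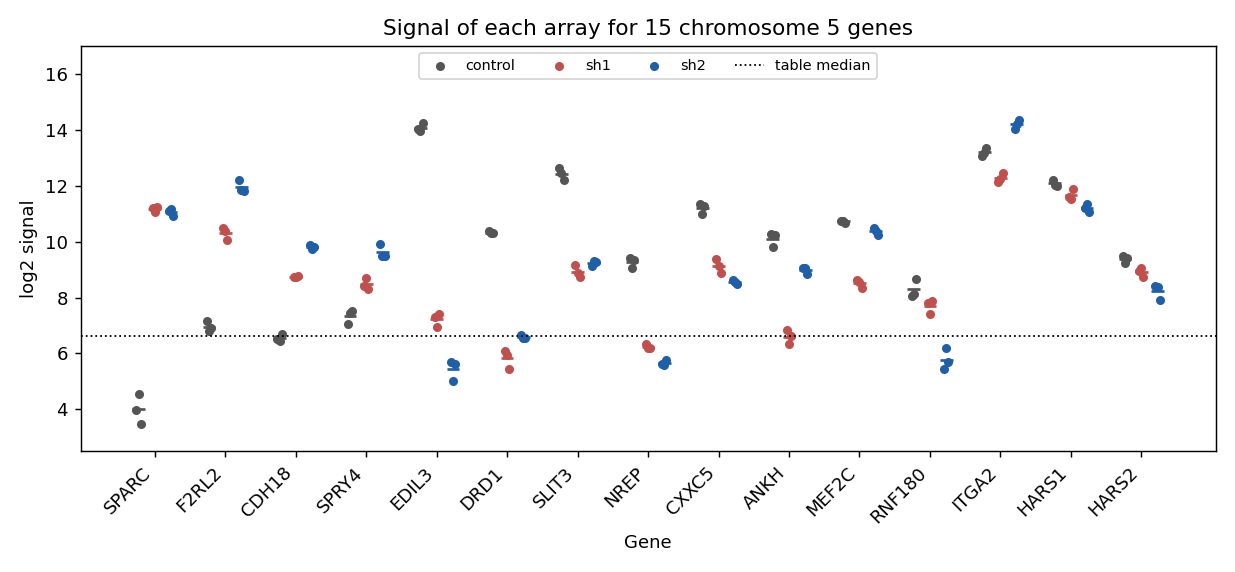
Log2 signal (vertical axis) of each of the 9 arrays for 15 chromosome 5 genes (horizontal axis), with the table median dotted. Points are arrays and short lines are means of 3 arrays. SPARC moves from 4.0 to 11.17 and 11.06, EDIL3 from 14.07 to 7.21 and 5.44, and HARS2 from 9.38 to 8.91 and 8.24.

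Of 26 measured genes of mitochondrial proteins, 23 of them above the table median, 0 rose in either line. In sh1, 10 fell and in sh2, 16 fell, with medians of -0.38 and -0.53, while of all chromosome 5 rows above the median 30.7% and 51.9% fell, with medians of -0.30 and -0.51. The others did not pass the test. HIGD2A, a factor of respiratory supercomplexes, had 12.07, 11.76 and 11.58 in the control, 10.60, 10.52 and 10.18 in sh1 and 10.96, 10.71 and 10.11 in sh2. Neither line overlapped the control (-1.37 and -1.21, limma, adjusted p = 0.000952 and 0.00263). SLC25A46, an outer membrane protein of mitochondrial dynamics, fell in both lines (-1.01 and -1.22), as did UQCRQ, a subunit of respiratory complex III (-0.78 and -1.12). MRPL36, of the mitochondrial ribosome, fell too (-1.10 and -0.95). The neighbours of these 4 genes stood at -0.51 to -0.34 in sh1 and -0.67 to -0.55 in sh2. At an unadjusted p under 0.05, 2 members were higher in sh1 and 1 in sh2, and limma with a trended, robust prior also called 0.

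The 22 measured ribosome and translation genes were all above the table median. In sh1, 0 rose and 2 fell, and in sh2, 0 rose and 13 fell, with medians of -0.27 and -0.58, beside the same 30.7% and 51.9% of chromosome 5 rows. The difference in calls between the lines was not tested for the list. At an unadjusted p under 0.05, and in limma with a trended, robust prior, 0 members were higher in either line. HARS1 read 12.20, 12.04 and 12 in the control, 11.61, 11.51 and 11.88 in sh1 and 11.19, 11.34 and 11.05 in sh2. HARS2, whose start lies 84 bases away in the other direction, read 9.47, 9.25 and 9.43, then 8.96, 9.05 and 8.72, then 8.42, 8.37 and 7.92. In both genes the control arrays were highest and the sh2 arrays lowest, with no overlap. HARS1 and HARS2 fell in sh2 (-0.89 and -1.15, limma, adjusted p = 0.00114 and 0.000463), beside neighbours at -0.73, and their sh1 values of -0.41 and -0.47 did not pass (adjusted p = 0.0644 and 0.0632). NOP16, a nucleolar protein of ribosome assembly, and RARS1, the arginyl-tRNA synthetase, fell in sh2 (-0.92 and -0.87), beside neighbours at -0.585 and -0.64.

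Of 21 measured genes studied in loss of the long arm in blood disorders, 1 rose in each line, SPARC. In sh1, 4 fell and in sh2, 12 fell, with medians of -0.13 and -0.54. Of all chromosome 5 rows above the table median, 30.7% and 51.9% fell, with medians of -0.30 and -0.51. NR3C1, the glucocorticoid receptor, fell by 0.96 and 0.78 (limma, adjusted p = 0.000116 and 0.000665), among neighbours at -0.355 and -0.61. MEF2C, a transcription factor of muscle and neurons, read 10.75, 10.75 and 10.66 in the control, 8.64, 8.54 and 8.34 in sh1 and 10.50, 10.37 and 10.25 in sh2. It fell in sh1 by 2.21 (adjusted p = 4.74e-07), and its -0.35 in sh2 did not pass (adjusted p = 0.0970). TNFAIP8, a TNF-induced protein whose mean was below the table median, fell by 1.14 and 1.25.

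Of 28 measured cell cycle and repair genes, 24 lay above the table median. There were 3 rises and 6 falls in sh1 and 1 rise and 7 falls in sh2, with medians of 0.0 and -0.18. The 24 members above the median had medians of -0.06 and -0.26. Of all chromosome 5 rows above it, 30.7% and 51.9% fell, with medians of -0.30 and -0.51. DEPDC1B, which acts in mitotic entry, rose in sh1 by 1.22 (limma, adjusted p = 0.00132), and CEP72, a centrosome protein at the end of the p arm, by 0.85 (adjusted p = 0.0145), a call lost without sh1 3 (0.72, adjusted p = 0.0606). CCNG1, a p53-induced cyclin, fell by 1.16 and 0.81, among neighbours at -0.32 and -0.60. MSH3, a mismatch repair protein, fell by 1.01 in sh2, and its -0.43 in sh1 was at the threshold (adjusted p = 0.0499) and was lost without any 1 of the 9 arrays (-0.50 to -0.30, adjusted p = 0.0518 to 0.156).

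Metabolic genes differed from one another. Of 19 measured, sh1 had 2 rises and 6 falls and sh2 had 1 rise and 7 falls, with medians of -0.29 and -0.29. ELOVL7, an elongase of long fatty acids, rose from 4.24, 5.09 and 4.75 in the control to 8.23, 8.46 and 8.54 in sh1 and 5.87, 5.61 and 5.47 in sh2. Only sh1 crossed the table median (3.72 and 0.96, limma, adjusted p = 2.71e-07 and 0.00727). HMGCS1, the enzyme that makes HMG-CoA for cholesterol synthesis, went from 11.07, 11.24 and 11.22 to 10.61, 10.45 and 10.55 in sh1 and 9.69, 9.75 and 9.88 in sh2. The groups were apart (-0.64 and -1.40, adjusted p = 0.00296 and 1.21e-05), and this was one of the largest falls of the p arm in sh2.

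Other genes with large changes had various functions. NREP, a small neuronal protein, fell in both lines (-3.03 and -3.61), as did CXXC5, a zinc finger protein that dampens Wnt signalling (-2.09 and -2.64) (limma, adjusted p at most 3.2e-06 in these 4 comparisons). MCTP1, a calcium-binding membrane protein, rose by 1.13 and 1.43 (adjusted p = 5.96e-05 and 1.21e-05). Within the p arm, CMBL, a hydrolase, fell in both lines (-1.28 and -0.95), as did BASP1, a membrane-bound signalling protein (-0.96 and -1.34), and TRIO, a guanine nucleotide exchange factor (-0.69 and -1.28).

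Below the table median, DPYSL3, a protein of neurite growth, had 7.28, 7.68 and 8.33 in the control and 2.88 to 3.48 in the 6 arrays of the lines, which is under the lower quartile (-4.63 and -4.33, limma, adjusted p = 1.18e-07 and 1.72e-07). EPB41L4A, a membrane skeleton protein, likewise went from 6.64 to 7.14 in the control arrays to 3.33 to 4.16 in the lines (-3.10 and -2.93). NPR3, the clearance receptor of natriuretic peptides, gave -1.02 for sh1 and -3.33 for sh2 (adjusted p = 0.00573 and 1.02e-06). The values that lie under the lower quartile are near the lowest signals of the arrays. The differences of DPYSL3 and EPB41L4A, like the rise of SPARC, may therefore be larger than measured. Of the NPR3 arrays, only the sh2 array at 4.02 lay under that quartile.

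The lines also differed from each other. In sh2 minus sh1, 84 of the 482 rows (17.4%) were lower and 35 (7.26%) higher, where 8.64% and 9.29% of all rows above the median were called, and the median was -0.24 against -0.03 over all rows above the median. On the p arm 10 rows were lower and 11 higher, and on the q arm 74 were lower and 24 higher. These counts became 7 higher on the p arm without sh1 1 or sh2 3, 6 lower on the p arm without sh2 1, and 49 lower on the q arm without sh1 1 or sh2 2. ANKH, a membrane protein that exports pyrophosphate and ATP, read 10.27, 9.82 and 10.24 in the control, 6.83, 6.33 and 6.61 in sh1 and 9.06, 9.05 and 8.83 in sh2. All groups were apart, and sh1 was lowest (sh2 minus sh1 2.39 ± 0.17, limma, adjusted p = 3.11e-06). RAI14, an actin-binding protein, fell in sh1 (-1.82, adjusted p = 2.12e-06) and not detectably in sh2 (-0.25, adjusted p = 0.244), and its lines differed by 1.58 (adjusted p = 9.31e-06).

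RNF180, a ubiquitin ligase, was the reverse case. It had 8.07, 8.12 and 8.67 in the control, 7.80, 7.42 and 7.88 in sh1 and 5.43, 6.18 and 5.69 in sh2, with sh2 under the other two groups (sh2 minus sh1 -1.93 ± 0.22, limma, adjusted p = 0.000135). ELL2, a factor of transcription elongation, and SLCO4C1, an organic anion transporter, rose in sh2 by 1.47 and 1.62, gave 0.36 and 0.24 in sh1 (adjusted p = 0.0793 and 0.482), and were higher in sh2 than in sh1 by 1.11 and 1.38 (adjusted p = 0.000146 and 0.000714). PLEKHG4B, the first gene of the p arm in the profile, had sh2 under sh1, at -0.99 (adjusted p = 0.000740).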

How the data were processed

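Total RNA of 9 samples was measured on 1-colour whole-transcript arrays after biotin labelling with the WT Plus kit, per the labels. The values are log2 signals that the authors deposited after summarising and normalizing with Transcriptome Analysis Console, per the submitters' processing notes; the log2 scale was read from their range (2.03 to 18.57), while its version and settings, and the build of the row identifiers, were not given in the labels or files. They were used as deposited. Row genes came from the platform annotation: 757 of the 901 chromosome 5 rows had 1 symbol and were ordered by RefSeq (GRCh38.p14), 139 of the other 144 were placed between neighbours in the identifier series, and the p arm was taken to end at MRPS30. Groups were compared with limma 3.58.1 in R 4.3.3 in 1 model over 9 arrays, adjusted by Benjamini and Hochberg over 21448 rows, and the code was tested on simulated data. Promoter sequences matched 683 of the 757 genes.

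Array numbers were not used as pairs: deviations of same-numbered arrays correlated at -0.0358 to 0.18, and 2 of 9 pairs passed 0.1. Named genes are the called rows with the largest changes per arm and line, in both lines and between the lines, up to 4 members of each of 12 gene lists, and the largest changes below the table median; genes at block borders are named too, and F2R, the 4 interleukins, ERBIN and the genes of the background paragraph were added outside this rule. Chromosome, lists and rule were chosen with earlier results of these data known. Alternatives covered scaling, split, prior, samples, block, threshold, rows, order and each array left out. The number of arrays limits the precision.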

Additional observations from a re-analysis of the deposited data

Results flagged for a closer look

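Genes of chromosome 5 that were called lower in one line and higher in the other, each against the control, were looked at again. The test of sh2 minus sh1 passed in each of them too. There were 4 of 482 (0.83%) above the table median, which is near the 0.933% of all rows above it. ITGA2, the collagen receptor subunit, was at -0.92 in sh1 and 1.00 in sh2, a difference of 1.92 (limma, adjusted p = 5.11e-06), and IL31RA was at -1.06 and 0.93, a difference of 1.99 (adjusted p = 2.22e-05). Both lie in the shallow stretch of the q arm, as does ERBIN, described in the next paragraph. DAB2, an endocytic adaptor on the p arm, read 7.77, 7.86 and 7.70 in the control, 6.66, 6.48 and 6.57 in sh1 and 8.42, 8.05 and 8.36 in sh2, a difference of 1.71 (adjusted p = 7.11e-06). Its rise in sh2 (0.50, adjusted p = 0.0252) was lost when control 1, control 3, sh2 1 or sh2 3 was left out (0.43 to 0.50, adjusted p = 0.0748 to 0.0835).

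ERBIN, a scaffold protein of ERBB2, was the reverse case, and was named after its values were seen. It read 12.55, 12.58 and 12.57 in the control, 13.14, 13.07 and 13.24 in sh1 and 11.79, 11.86 and 12.14 in sh2, a difference between the lines of -1.22 (limma, adjusted p = 7.33e-05). Below the table median, ST8SIA4, a polysialyltransferase, read 5.24, 5.62 and 5.21 in the control, 3.95, 3.73 and 4.39 in sh1 and 6.78, 7.50 and 6.94 in sh2, the widest of these differences at 3.05 (adjusted p = 3.5e-06).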

How the results depend on the processing

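No called difference of a named gene changed its sign under these alternatives. Sign changes of differences that stayed uncalled were not counted, and some small ones did change. Of 210 pairs of a named gene and a comparison, 146 were called, and 16 of these calls were lost in some alternative other than the 2-fold threshold, 14 of them only when 1 array was left out; 20 uncalled pairs were called in some alternative. The array number as a replicate block cost 1 named call (MSH3 in sh1, adjusted p = 0.0585) and left 23 and 124 rows lower in sh1 and 36 and 213 in sh2 (p and q arm). The planned windows of fixed length along the chromosome were not run, since the build of the identifiers is not given in the sources used here. Counts are given below as p arm, then q arm, for sh1, sh2 and sh2 minus sh1.

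With a 2-fold difference required, 9 and 41, 8 and 58, and 1 and 13 rows were lower, and 1 and 9, 1 and 9, and 4 and 11 higher. Above the upper quartile, 17 and 74, 23 and 137, and 6 and 39 were lower, and 0 and 13, 0 and 8, and 4 and 10 higher. In sh1, 6 p-arm rows above the lower quartile were higher, and 7 and 35 of all rows. With a trended, robust prior 17 and 114 rows were lower in sh2 minus sh1. The medians of rows above the lower quartile were -0.25 and -0.25 in sh1, -0.34 and -0.41 in sh2 and, on the q arm, -0.16 for sh2 minus sh1. Over all rows they were -0.14 and -0.15, -0.21 and -0.27, and -0.087 and -0.093, and above the upper quartile -0.27 (q arm, sh1) and -0.50 (p arm, sh2). Centring on other chromosomes, which moved all medians of a line by 0.06 at most, gave -0.33 in sh1 and -0.57 in sh2 on the q arm, and quantile normalization gave -0.31 in sh1.

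The lowest running median of sh1 was -0.54 when centred, -0.44 over all rows, -0.45 above the upper quartile and -0.60 over 20 rows. Its highest was 0.065 when centred, 0.14 above the lower quartile, 0.043 for rows with a symbol, 0.14 over 20 rows and 0.068 in identifier order. In sh2 the lowest was -0.73 over all rows, -0.70 above the upper quartile, -1.04 over 20 rows and -0.72 in identifier order, and the highest -0.045 over all rows and -0.043 over 20 rows. STOML2 in sh2 minus sh1 (-0.59) was not called with only these groups fitted (adjusted p = 0.0852) or with a 2-fold difference required.

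Leaving out 1 array at a time gave medians of -0.37 to -0.25 (p arm) and -0.31 to -0.26 (q arm) in sh1, -0.49 to -0.37 and -0.53 to -0.50 in sh2, and -0.18 to -0.13 and -0.24 to -0.21 between the lines. Lower rows numbered 19 to 27 and 98 to 124 in sh1, 25 to 37 and 172 to 216 in sh2, and 6 to 11 and 49 to 66 between the lines. Higher rows numbered 2 to 4 and 14 to 22, 1 to 3 and 12 to 15, and 7 to 11 and 17 to 24. The running median of sh1 was -0.54 to -0.46 at its lowest and 0.073 to 0.13 at its highest, and that of sh2 -0.85 to -0.78 and -0.23 to -0.14. STOML2 was at -5.40 to -5.28, -6.07 to -5.75 and -0.72 to -0.40, the last not called without any array except sh2 2 (adjusted p = 0.0548 to 0.113).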
